A study of Mus musculus with 8 samples.

Results

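The genes described are 7 matrix metalloproteinases, Mmp2, Mmp3, Mmp7, Mmp12, Mmp13, Mmp14 and Mmp19, and 3 of their tissue inhibitors, Timp1, Timp2 and Timp3. They were taken by symbol from a table of liver read counts, where they are 10 of 22155 genes, and each of the 10 had reads in every library. The 8 libraries form 4 groups of 2. Mice of the Yap control group were homozygous for a floxed Yap1 allele and received an AAV8 virus with GFP, and those of the Yap1 knockout group received AAV8-iCre, which removes Yap1 from hepatocytes. Mice of the Ctgf control group were homozygous for a floxed Ctgf allele, and those of the Ctgf knockout group carried a conditional knockout of Ctgf, for which the sources used here name no Cre driver. Whole liver was sequenced, so other liver cells, in which a deletion limited to hepatocytes leaves Yap1 intact, are in the libraries too. All groups are C57BL/6 by label and were 8 to 10 weeks old. All were fed Lieber-DeCarli diet containing 1% ethanol during 2 days and 2% ethanol during 10 more, and all were injected with carbon tetrachloride (CCl4), a liver toxin, at a dose of 1 µl per g, 2 days before sacrifice. Every comparison below is therefore within injured livers. The question is whether the loss of Yap1, a transcriptional coactivator restrained by the Hippo pathway, or of Ctgf, a secreted matrix-associated protein, moves the enzymes that cut matrix and the proteins that hold them back.

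Matrix metalloproteinases are zinc endopeptidases that are made as inactive proenzymes and cut collagens, elastin and other proteins outside the cell once the propeptide is removed. Mmp14 is anchored in the plasma membrane and activates the proenzyme of the gelatinase Mmp2. Mmp13 is the main interstitial collagenase of mice, Mmp3 is a stromelysin, Mmp7 is matrilysin, which epithelial cells make, and Mmp12 is the elastase of macrophages. Timp proteins bind the active site of these enzymes. Timp1 is soluble and readily induced, Timp2 takes part in the activation of proMmp2 on the cell surface, and Timp3 is held in the matrix and also blocks several Adam and Adamts proteases. In injured liver, activated stellate cells are a known source of Timp1, and macrophages of Mmp12 and Mmp13.

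In the GENCODE annotation of GRCm38, Mmp13, Mmp12, Mmp3 and Mmp7 lie in this order on the plus strand of chromosome 9, in a cluster of 10 Mmp genes that spans 427.1 kb, from 7272514 to 7699585. The gene removed in the first knockout, Yap1, lies on the minus strand of the same chromosome, from 7931999 to 8004596. Its nearer end, the 3′ end of the gene, is 232.4 kb beyond the end of Mmp7 and 648.7 kb beyond that of Mmp13. Any part of this neighbourhood in the values below was not tested. The other members are scattered, with Mmp2 on chromosome 8 (92827291 to 92853420), Mmp14 on chromosome 14 (54431612 to 54445364), Mmp19 on chromosome 10 (128790910 to 128800824) and Timp3 on the same chromosome (86300372 to 86349506). Timp1 lies on chromosome X (20870166 to 20874735) and Timp2 on the minus strand of chromosome 11 (118301069 to 118355740). The promoters of the clustered members are shown because they share a motif. RefSeq (GRCm38.p6) start sites were found for 8 of the 10 members. Each sequence below is the 250 bases before a start site on the plus strand, 5′ to 3′, and capitals mark each match to the AP-1 motif TGANTCA or to TATAAA.
Mmp13, chr9:7272264-7272513: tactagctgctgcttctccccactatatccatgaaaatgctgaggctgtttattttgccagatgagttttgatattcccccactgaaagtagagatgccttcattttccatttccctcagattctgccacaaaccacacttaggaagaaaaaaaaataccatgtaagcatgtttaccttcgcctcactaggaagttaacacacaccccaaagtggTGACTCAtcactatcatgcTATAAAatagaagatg
Mmp12, the second of its start sites, chr9:7347124-7347373: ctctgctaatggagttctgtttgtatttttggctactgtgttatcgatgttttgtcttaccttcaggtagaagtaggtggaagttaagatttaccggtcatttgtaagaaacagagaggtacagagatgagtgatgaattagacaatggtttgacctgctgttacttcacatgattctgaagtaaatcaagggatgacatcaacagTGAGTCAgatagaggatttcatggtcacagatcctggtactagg
Mmp3, chr9:7445572-7445821: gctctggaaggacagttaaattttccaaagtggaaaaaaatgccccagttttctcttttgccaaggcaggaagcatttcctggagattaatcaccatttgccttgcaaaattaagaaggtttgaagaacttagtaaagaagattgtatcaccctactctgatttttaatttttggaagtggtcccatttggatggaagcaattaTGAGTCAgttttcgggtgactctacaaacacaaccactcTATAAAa
Mmp7, the first of its start sites, chr9:7691840-7692089: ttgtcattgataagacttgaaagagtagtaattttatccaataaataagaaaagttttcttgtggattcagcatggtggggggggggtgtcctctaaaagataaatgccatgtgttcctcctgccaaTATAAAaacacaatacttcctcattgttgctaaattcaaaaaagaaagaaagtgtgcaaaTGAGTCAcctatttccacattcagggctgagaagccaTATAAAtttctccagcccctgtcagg

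TGANTCA, which reads the same on both strands apart from its middle base, was found in all 4 clustered members, 35 bases before the start in Mmp13 (TGACTCA), 44 in Mmp12, 46 in Mmp3 and 63 in Mmp7 (each TGAGTCA). The other start site listed for Mmp12 had none, and neither did the other one listed for Mmp7. None of the windows of Mmp14, Timp1, Timp2 and Timp3 held it. Among all 32851 RefSeq promoters of the same 300 bases, which run on for 50 bases past the start, 7.81% held the motif, and 13.6% held TATAAA on either strand. The third motif searched, the ETS motif AGGAAG, was in 35.4% of them and is not marked here. A match is a run of letters and no evidence of binding. In their levels the 4 genes differed: Mmp12 and Mmp13 were high and low in the same libraries, while Mmp7 was highest in Yap control 2, where Mmp12 and Mmp13 were lowest within the Yap line.

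Library totals ran from 26904021 to 33488609 counts, and levels are given in CPM, the count scaled to the size of the library by edgeR's TMM method. Yap1 was at 107 and 76.1 CPM in the Yap controls against 31 and 32.5 CPM in the Yap1 knockouts. Ctgf was at 28.8 and 32.1 CPM in the Ctgf controls, 8.02 CPM in Ctgf knockout 1 and 49.2 CPM in the second, which goes against its label and is called the library labelled Ctgf knockout 2 below. In the Yap line Ctgf was at 96.8 and 50.1 CPM in the controls and 406 and 324 CPM in the Yap1 knockouts, so the Yap1 and the Ctgf knockouts are not alike in Ctgf level. Yap control 2 stands apart too: a sum over 13 genes of the exocrine pancreas was 14300 CPM there and 3.13 to 7.54 CPM in the other libraries. Albumin, which marks hepatocytes, was at 29900 to 69300 CPM, so each library is liver by that marker. In whole tissue, fewer cells of a type and less RNA per cell cannot be told apart.

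Livers without hepatocyte Yap1 held more Timp3 transcript than their controls in both libraries, while the groups overlapped for the other 9 members. By test, none of the 10 members passed the threshold (adjusted p under 0.05, edgeR quasi-likelihood test, Benjamini-Hochberg over 13999 genes), where 0.0286% of all genes did (0.0214% higher and 0.00714% lower in the knockouts). At an unadjusted p under 0.05 there was 1 member, Timp3, against 13.8% of all genes, and DESeq2 called 1 member, again Timp3, against 3.85% of its tested genes. Timp3 was also the 1 member whose libraries did not overlap between the groups, where 44.4% of all genes did not (23.6% higher and 20.8% lower). The member log2 fold changes had a median of -0.15, beside 0 over all genes, with 5 above 0 and 5 below. For 6 members (Mmp3, Mmp7, Mmp12, Mmp13, Mmp14 and Mmp19) the sign turned when 1 Yap library was left out, so no direction is read for them. Without Yap control 1, 2 members passed with edgeR (Mmp7 and Timp3), where 25.8% of all genes then did, and without both Yap control 2 and the library labelled Ctgf knockout 2 it was 1 (Timp3), where 6.58% did. Each of these fits rests on 1 Yap control, assumed to vary like the other groups, and in the first it is the library with the pancreas transcripts, so these calls are given as values and support nothing.

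Timp3, the matrix-bound inhibitor, was at 50.2 and 32.6 CPM in the Yap controls against 106 and 133 CPM in the Yap1 knockouts. Both knockouts stood above both controls. The means were 41.4 ± 12.5 and 119 ± 19.1 CPM (SD, n = 2 each), a log2 fold change of 1.52 (SE 0.311, 95% interval 0.80 to 2.24), or 2.87-fold. The edgeR adjusted p was 0.132, which does not pass, and the unadjusted p was 0.00125. DESeq2 gave the same log2 fold change with an adjusted p of 0.000798, and edgeR without Yap control 1 gave 1.84 with an adjusted p of 0.0155, from Yap control 2 as the lone control. Timp3 shares 1733 of its 8144 exonic bases with Syn3 on the other strand, and the strand setting of the counting is not given. Syn3 was at 0.626 to 1.12 CPM in all libraries.

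**Figure D1:**
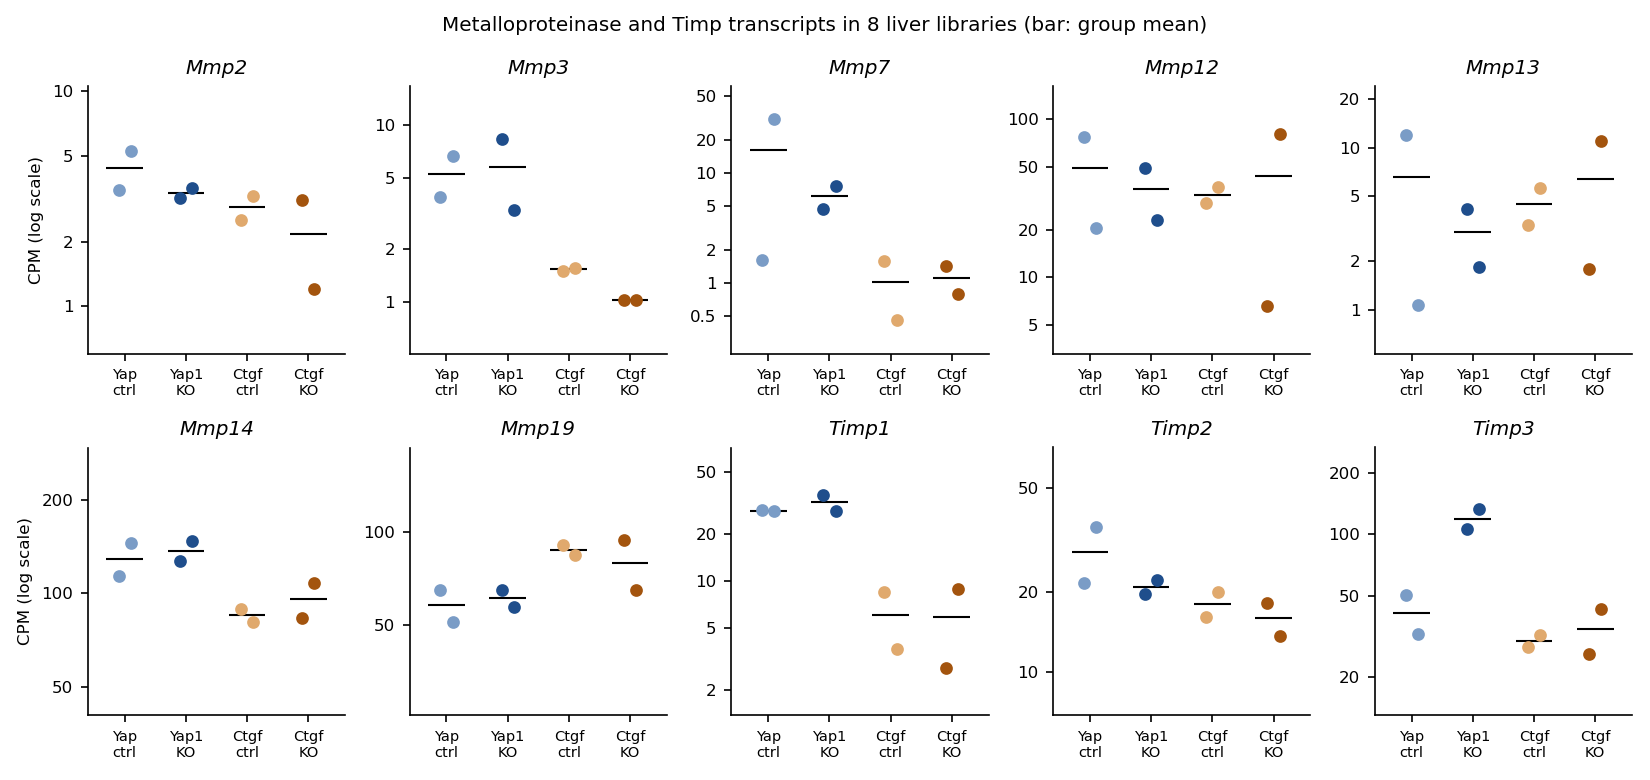
Level of each of the 10 genes in CPM (log axis) in the 8 libraries, by group (ctrl, control; KO, knockout), with a point per library. Timp3 stands higher in both Yap1 knockouts (106 and 133) than in both Yap controls (50.2 and 32.6), and Mmp7 stands at 30.9 in Yap control 2 alone.

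The same gene in the Ctgf line was at 28 and 32.2 CPM in the controls, at 26.1 CPM in Ctgf knockout 1 and at 43 CPM in the library labelled Ctgf knockout 2. The knockout libraries lay on either side of the controls. The log2 fold change was 0.20 (SE 0.306, 95% interval -0.50 to 0.91, edgeR adjusted p = 1). The difference between the Yap1 and the Ctgf effect on Timp3 was 1.32 on the log2 scale (SE 0.433, 95% interval 0.32 to 2.32), with an unadjusted p of 0.0161 and an edgeR adjusted p of 0.512. That difference did not pass either, and none of the members passed it, against 0% of all genes with edgeR. At an unadjusted p under 0.05 the difference held 1 member, Timp3, against 8.87% of all genes, and DESeq2 called 0 members, against 1.19%. Without Yap control 1 the difference was 1.63 and passed, with an edgeR adjusted p of 0.049, where 14.5% of all genes then did, again with Yap control 2 as the lone Yap control.

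Timp1 and Timp2 did not follow Timp3. Timp1, the inducible soluble inhibitor, was at 28.4 and 27.9 CPM in the Yap controls against 35.7 and 28.2 CPM in the Yap1 knockouts. The groups overlapped, and the log2 fold change was 0.18 (SE 0.531, 95% interval -1.05 to 1.41, edgeR adjusted p = 0.882). In the Ctgf line it was at 8.51 and 3.67 CPM in the control group against 2.77 and 8.9 CPM in the knockout libraries. There the knockout libraries enclosed the controls, and the log2 fold change was -0.06 (SE 0.549, edgeR adjusted p = 1). Timp2, which both inhibits Mmp2 and helps to activate it, was at 21.7 and 35.5 CPM in the Yap controls against 19.8 and 22.3 CPM in the Yap1 knockouts. Its log2 fold change was -0.44 (SE 0.287, 95% interval -1.10 to 0.23, edgeR adjusted p = 0.495), an interval that reaches just past a halving and leaves out a doubling. The Ctgf controls held 16.1 and 20 CPM of Timp2 and the knockout libraries 18.2 and 13.7 CPM, with a log2 fold change of -0.18 (SE 0.288, edgeR adjusted p = 1).

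To compare levels between genes, CPM was divided by the length of each gene's merged exons in kb. On this scale the Timp genes, with Timp4 included at no more than 3 counts in a library, summed to 43.8 and 44.5 CPM per kb in the Yap controls and 58.3 and 53.7 in the Yap1 knockouts, so the knockouts stood above the controls. The share of this sum that was Timp3 was 14.1% and 8.98% in the Yap controls and 22.2% and 30.3% in the Yap1 knockouts. Timp1 made up most of the sum in each Yap library, 73.2% and 70.5% in the controls and 69% and 59.1% in the knockouts. For the Ctgf line the sum was 17.2 and 13.2 CPM per kb in the controls and 11 and 18.8 in the knockout libraries, and no inhibitor held most of it throughout: Timp1 ran from 28.3% to 55.9%, Timp2 from 18.6% to 42.5% and Timp3 from 20% to 29.9%. With the longest coding transcript as the length, an alternative chosen after seeing the data, the Timp3 share was 21.8% and 14.4% in the Yap controls and 32.8% and 42.5% in the Yap1 knockouts, and Timp1 was at 48.4% in Yap1 knockout 2. The shares therefore depend on the length, while the order of the Yap groups by Timp3 share did not. These shares were not tested.

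**Figure D2:**
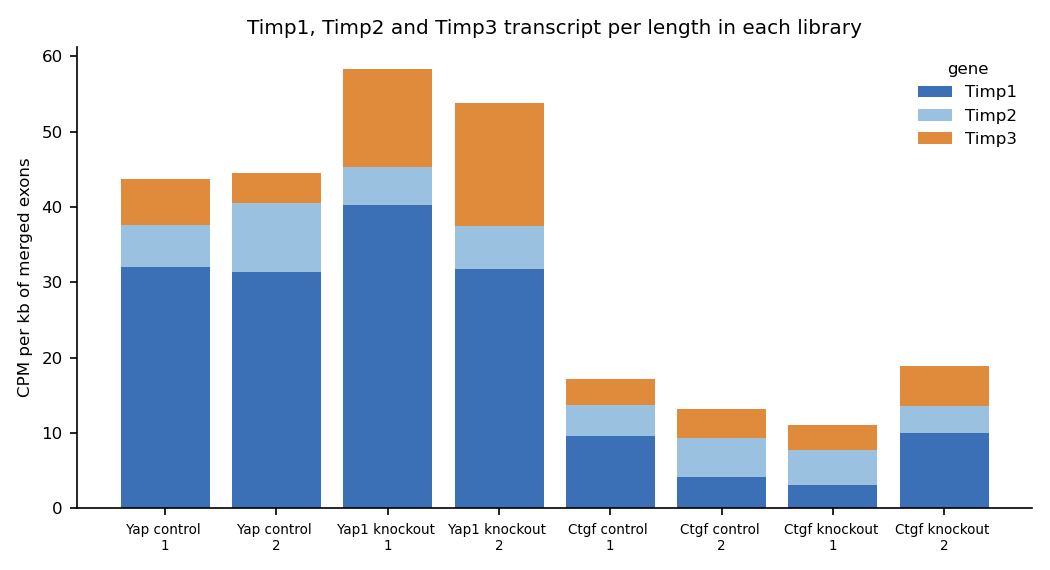
Timp1, Timp2 and Timp3 in CPM per kb of merged exons in each of the 8 libraries, stacked by gene. Timp1 makes up the largest piece in each Yap library (59.1% to 73.2%), and the Timp3 piece is larger in the Yap1 knockouts (22.2% and 30.3%) than in the Yap controls (14.1% and 8.98%).

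Mmp12 and Mmp13 varied widely within groups, and in each of the 4 groups the library with more Mmp12 was the one with more Mmp13. Mmp12, the macrophage elastase, was at 77.1 and 20.4 CPM in the Yap controls against 49.1 and 23.1 CPM in the Yap1 knockouts. Mmp13, the collagenase, was at 12 and 1.07 CPM in the same controls against 4.18 and 1.83 CPM in the knockouts. For both genes the control libraries enclosed the knockouts. The log2 fold changes were -0.43 for Mmp12 (SE 0.998, 95% interval -2.74 to 1.87) and -1.13 for Mmp13 (SE 1.1, 95% interval -3.67 to 1.41), with edgeR adjusted p of 0.845 and 0.632. Intervals this wide allow a change of several-fold either way. Without Yap control 1 the values turned to 0.79 and 1.46.

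The spread was as wide in the Ctgf line. Mmp12 was at 29.3 and 37.2 CPM in the controls, 6.56 CPM in Ctgf knockout 1 and 81.1 CPM in the library labelled Ctgf knockout 2. Mmp13 was at 3.32 and 5.66 CPM in the controls, 1.77 CPM in Ctgf knockout 1 and 11 CPM in the library labelled Ctgf knockout 2. Ctgf knockout 1 thus held the lowest level of each in its line, and the library labelled Ctgf knockout 2 held the highest. Ctgf knockout 1 was also lowest in the line for 9 of 9 monocyte-derived macrophage genes. That was not particular to these genes. The same library was lowest for 12 of 13 cytokine and AP-1 genes, 7 of 8 Kupffer cell genes and 5 of 7 hepatocyte genes. It was lowest for 1 of 8 endothelial and 1 of 6 mesothelial genes, and the share over all genes was not counted. Any part of the Ctgf level in the order of the libraries by Mmp12 and Mmp13 was not tested. The fitted log2 fold changes were 0.40 for Mmp12 (SE 0.998) and 0.51 for Mmp13 (SE 1.08), each with an edgeR adjusted p of 1. Without the library labelled Ctgf knockout 2 they turned to -2.34 and -1.34, each again with an adjusted p of 1 and resting on 1 knockout library.

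Macrophage genes were set beside the pair. The sum over 9 genes of monocyte-derived macrophages was 974 and 1860 CPM in the Yap controls, 1110 and 977 in the Yap1 knockouts, 330 and 322 in the Ctgf controls, 186 in Ctgf knockout 1 and 380 in the library labelled Ctgf knockout 2. Within the Ctgf line the lowest and highest libraries of the sum were those of Mmp12 and Mmp13, but single genes differed at the top. In the library labelled Ctgf knockout 2, 3 of the 9 (Itgam, Cd68 and Lgals3) had their highest level of the line. Another 4 (Ccr2, Adgre1, Cx3cr1 and Trem2) were highest in Ctgf control 2, and 2 (Ly6c2 and Gpnmb) in Ctgf control 1. In the Yap line the list was split in Yap control 2, where both enzymes were lowest: 4 of its genes (Ccr2, Itgam, Adgre1 and Cx3cr1) had their lowest level of the line there and the other 5 their highest, among them Lgals3, at 1120 CPM, which made up most of the sum. No gene of that list was at 0 in any library, and the part of these cells in the enzyme levels was not tested. Mmp12 shares 157 exonic bases with Mmp1b on the other strand, which had no count in any library.

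**Figure D3:**
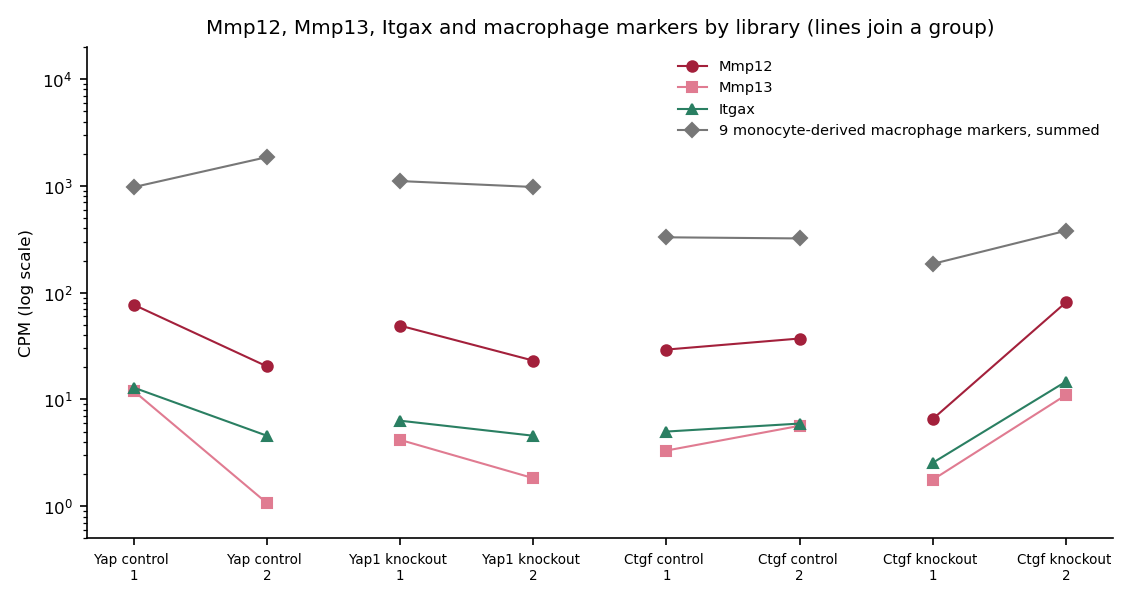
Mmp12, Mmp13, the leukocyte integrin gene Itgax and the sum over 9 monocyte-derived macrophage genes, in CPM (log axis), in each of the 8 libraries. Colours mark the series, and lines join the libraries of a group. Mmp12 and Mmp13 are both high in Yap control 1 (77.1 and 12) and in the library labelled Ctgf knockout 2 (81.1 and 11). Mmp13 is lowest in Yap control 2 (1.07).

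Mmp7, the epithelial matrilysin, had the widest range of the 10 members, 67.9-fold from the lowest library to the highest. It was at 1.6 and 30.9 CPM in the Yap controls against 4.74 and 7.54 CPM in the Yap1 knockouts. The highest value came from Yap control 2, the library with the pancreas transcripts. In that library Krt19, an epithelial keratin of bile ducts and pancreatic ducts, was at 32.6 CPM, against 0.745 to 3.06 CPM elsewhere, and Epcam, an epithelial adhesion protein, was at 17.5 CPM, against 1.14 to 3.16 CPM. Of 6 cholangiocyte genes, 4 (Krt7, Krt19, Epcam and Cftr) had their highest level of the Yap line there. The sum over the 6 was 142 CPM there, 77.1 CPM in Yap control 1 and 112 to 173 CPM in the other libraries. The part of epithelial cells in the Mmp7 level was not tested. The log2 fold change of Mmp7 was -1.40 (SE 1.09, 95% interval -3.91 to 1.12, edgeR adjusted p = 0.557), and without Yap control 2 it turned to 1.94 (adjusted p = 0.312). Without Yap control 1, with Yap control 2 as the lone control, it was -2.36 and passed, with an adjusted p of 0.0331, so its direction depends on which control is kept. Within the Ctgf line Mmp7 was at 1.59 and 0.455 CPM in the controls and 1.42 and 0.795 CPM in the knockout libraries, down to 16 counts in Ctgf control 2, with a log2 fold change of 0.12 (SE 1.21, edgeR adjusted p = 1).

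Mmp3, the stromelysin, was at 3.93 and 6.67 CPM in the Yap controls against 8.33 and 3.32 CPM in the Yap1 knockouts, where the knockouts enclosed the controls. Its log2 fold change was 0.14 (SE 0.467, 95% interval -0.94 to 1.22, edgeR adjusted p = 0.898). In the Ctgf line it was at 1.5 and 1.56 CPM in the control group against 1.03 and 1.02 CPM in the knockout libraries. These groups did not overlap, yet each library held only 29 to 55 counts, and the log2 fold change was -0.58 (SE 0.504, 95% interval -1.75 to 0.59, edgeR adjusted p = 1). Mmp2, the gelatinase, was at 3.48 and 5.27 CPM in the Yap controls against 3.19 and 3.53 CPM in the Yap1 knockouts, with a log2 fold change of -0.38 (SE 0.468, edgeR adjusted p = 0.707). It was at 2.52 and 3.27 CPM in the Ctgf controls against 3.12 and 1.21 CPM in the knockout libraries, with a log2 fold change of -0.42 (SE 0.476, edgeR adjusted p = 1).

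Mmp14 and Mmp19 were the steadiest members, with ranges of 1.83-fold and 1.84-fold over all 8 libraries. Mmp14, the membrane-anchored activator of proMmp2, was at 114 and 145 CPM in the Yap controls against 127 and 148 CPM in the Yap1 knockouts. Its log2 fold change was 0.09 (SE 0.222, 95% interval -0.42 to 0.60, edgeR adjusted p = 0.856), an interval that holds no doubling or halving. In the Ctgf line it was at 88.8 and 81 CPM in the control group against 83.3 and 108 CPM in the knockout libraries, with a log2 fold change of 0.17 (SE 0.222, 95% interval -0.34 to 0.69, edgeR adjusted p = 1). Mmp19, a secreted member of the family, was at 65 and 51 CPM in the Yap controls against 65 and 57 CPM in the Yap1 knockouts, and its log2 fold change was 0.07 (SE 0.236, 95% interval -0.47 to 0.62, edgeR adjusted p = 0.896). The Ctgf controls held 90.6 and 84.3 CPM of Mmp19 and the knockout libraries 94.1 and 65 CPM, with a log2 fold change of -0.14 (SE 0.235, 95% interval -0.68 to 0.41, edgeR adjusted p = 1). Mmp19 shares 789 of its 3533 exonic bases with Tmem198b on the other strand, which was at 4.43 to 8.38 CPM.

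In the Ctgf comparison as a whole, 0 of the 10 members passed, where 0% of all genes passed with edgeR. At an unadjusted p under 0.05 there were 0 members, against 1.98% of all genes, and DESeq2 called 0 members, against 0.0227% of its tested genes. Groups did not overlap for 1 member, Mmp3, lower in the knockout libraries, against 32.2% of all genes (15.5% higher and 16.8% lower). The member log2 fold changes had a median of 0.03, beside 0.01 over all genes. Leaving out the library labelled Ctgf knockout 2 turned the direction of 7 members (Mmp2 to 0.11, Mmp12 to -2.34, Mmp13 to -1.34, Mmp14 to -0.03, Mmp19 to 0.11, Timp2 to 0.01 and Timp3 to -0.20). Leaving out Ctgf control 2 turned Mmp7 to -0.52 and leaving out Ctgf control 1 turned Timp1 to 0.68, so no direction is read for these 9.

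**Figure D4:**
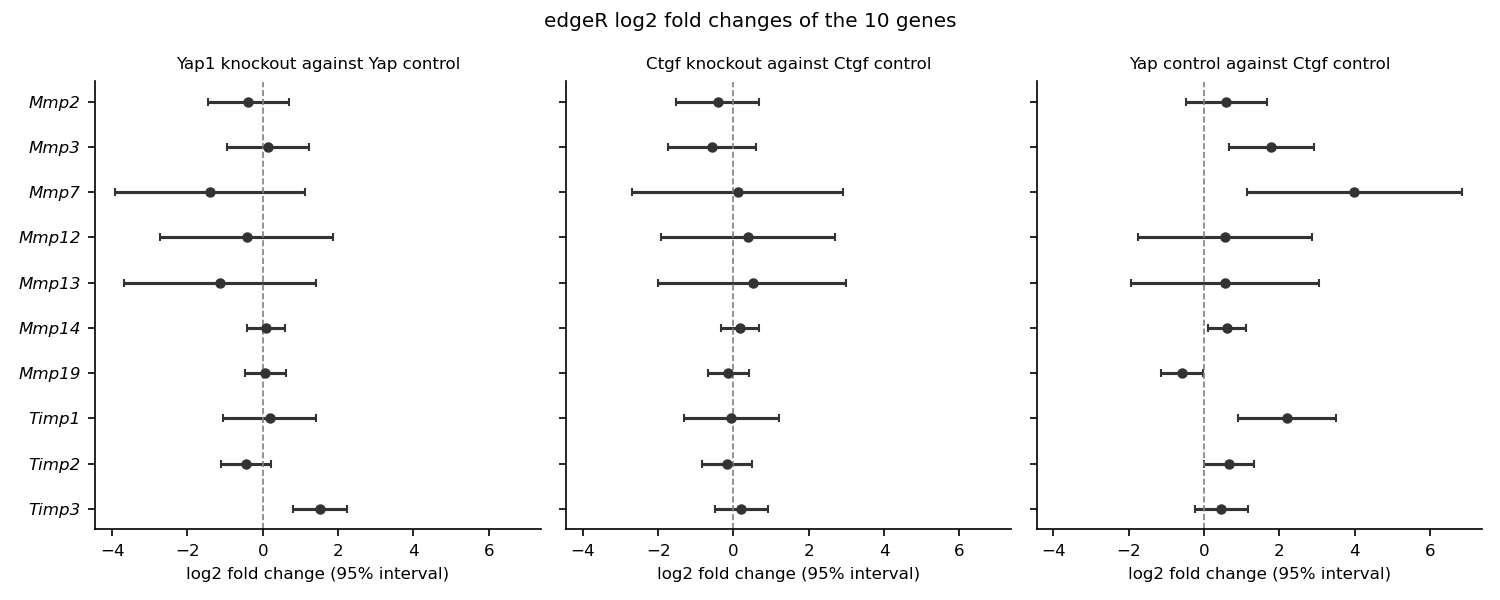
Log2 fold changes of the 10 genes (points) with 95% intervals (bars) from the edgeR fit, with a panel each for the Yap1 comparison, the Ctgf comparison and the control groups of the lines (Yap over Ctgf). In the knockout comparisons the Timp3 interval in the Yap line (0.80 to 2.24) is the 1 that leaves out 0, and the bars of Mmp7, Mmp12 and Mmp13 are the widest.

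The control groups of the lines were also set against each other, since they differ in floxed allele and in the virus that the Yap controls received. Allele, virus and anything else that went with the line cannot be told apart, and the comparison shares its controls with both knockout comparisons. The labels do not say which library kit each library had. Of the members, 0 passed with edgeR, where 2.38% of all genes did (1.27% higher and 1.11% lower in the Yap controls). At an unadjusted p under 0.05 there were 5 (Mmp3, Mmp7, Mmp14, Mmp19 and Timp1), against 22.5% of all genes, and DESeq2 called 3 (Mmp3, Mmp7 and Timp1), against 11.3% of its tested genes. Groups did not overlap for 8 members, against 53.2% of all genes, with 7 higher in the Yap controls (26.1% of all genes) and Mmp19 lower (27%). The median member log2 fold change was 0.6, beside 0.04 over all genes.

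Timp1 stood at 28.4 and 27.9 CPM in the Yap controls against 8.51 and 3.67 CPM in the Ctgf controls, a 4.63-fold difference with a log2 fold change of 2.21 (SE 0.561, 95% interval 0.91 to 3.51, edgeR adjusted p = 0.0815). With DESeq2 the adjusted p was 0.00124. Stellate cell genes also differed between the lines: their sum over 11 genes was 1300 and 1030 CPM in the Yap controls and 1230 and 1290 in the Yap1 knockouts, against 469 and 460 in the Ctgf controls and 437 and 397 in the Ctgf knockout libraries. In the line comparison 5 of those 11 genes were higher in the Yap controls by edgeR, where 1.27% of all genes were, and 2 had a log2 fold change below 0. Within the Ctgf knockout pair the sum was lower in the library with more Timp1. Sums of monocyte-derived macrophage genes and of endothelial genes were higher in the Yap line as well. Those of Kupffer cell genes, the other macrophage list, overlapped, at 816 to 1240 CPM in the Yap line and 421 to 1080 CPM in the Ctgf line. No stellate gene was at 0 in any library, and the part of stellate cells in the Timp1 level was not tested. Mmp3 was 3.44-fold higher in the Yap controls (log2 1.78, SE 0.491, edgeR adjusted p = 0.097). Mmp7 was 15.9-fold higher (log2 3.99, SE 1.23, edgeR adjusted p = 0.12), but Yap control 1 held 1.6 CPM beside 1.59 CPM in Ctgf control 1, and without Yap control 2 its log2 fold change was 0.65.

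Mmp14 was 1.53-fold higher in the Yap controls (log2 0.61, SE 0.223, edgeR adjusted p = 0.165) and Mmp19 1.51-fold lower (log2 -0.59, SE 0.236, edgeR adjusted p = 0.194). Timp2, Mmp2 and Timp3 had log2 fold changes of 0.66, 0.59 and 0.46, with edgeR adjusted p of 0.223, 0.484 and 0.401. Mmp12 (0.55) and Mmp13 (0.56) overlapped between the lines. Without Yap control 1, 4 members passed with edgeR (Mmp3, Mmp7, Mmp14 and Timp2), where 25.6% of all genes then did, with log2 fold changes of 2.14, 4.95, 0.79 and 1.00, while Mmp12 and Mmp13 turned to -0.68 and -2.04. That fit sets Yap control 2 alone, the library with the pancreas transcripts, against the Ctgf controls. Without both Yap control 2 and the library labelled Ctgf knockout 2, 3 members passed (Mmp19, Timp1 and Timp3), where 28.4% of all genes did.

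On the per-length scale, the order of the members differed between lines. In the Yap controls Timp1 came first at 31.7 ± 0.449 CPM per kb, then Mmp14 at 21.7 ± 3.58 and Mmp19 at 16.4 ± 2.8 (SD, n = 2 each). Mmp7 (15.2), Timp2 (7.34), Mmp12 (6.74) and Timp3 (5.08) followed, each overlapping its neighbour above in range, and Mmp3 (2.94), Mmp13 (2.45) and Mmp2 (1.3) came last. In the Yap1 knockouts the first 3 were the same, Timp1 at 36, Mmp14 at 23.1 and Mmp19 at 17.3 CPM per kb, and Timp3 came next at 14.6, its range overlapping that of Mmp19. In the Ctgf controls Mmp19 led at 24.8, then Mmp14 at 14.2 and Timp1 at 6.86, and in the Ctgf knockout libraries they were at 22.5, 16.1 and 6.57. Mmp2 and Mmp3 were near the bottom in each Ctgf group, at 0.568 to 0.859 CPM per kb. The order rests on the length used: with the longest coding transcript, an alternative chosen after seeing the data, Mmp14 came first in each group, at 40, 42.6, 26.2 and 29.6 CPM per kb.

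The sum over the 23 Mmp genes of the table was 76.5 and 100 CPM per kb in the Yap controls, 139 and 90.5 in the Yap1 knockouts, 61.9 and 64.4 in the Ctgf controls and 54.7 and 68.3 in the Ctgf knockout libraries. Its ratio to the Timp sum was 1.75 and 2.25 in the Yap controls and 2.38 and 1.69 in the Yap1 knockouts, which overlap. For the Ctgf line the ratio was 3.61 and 4.88 in the controls and 4.98 and 3.63 in the knockout libraries. Each Ctgf library stood above each Yap library, also with the longest coding transcript as the length (4.07 to 5.13 against 1.78 to 2.63). These ratios compare transcripts and say nothing of enzyme activity, and they were not tested.

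Of the 17 other Mmp and Timp genes, 11 had enough counts to test, and 0 passed in either knockout comparison with edgeR. In the Yap1 comparison 5 had an unadjusted p under 0.05 (13.8% of all genes did), and DESeq2 called 3 higher, Mmp8, Mmp9 and Mmp25 (3.85% of its tested genes in either direction). Mmp8, the collagenase of neutrophils, was at 8.66 and 22.6 CPM in the Yap controls against 127 and 45.5 CPM in the Yap1 knockouts (log2 2.47, SE 0.571, edgeR adjusted p = 0.159). It lies in the chromosome 9 cluster between Mmp3 and Mmp7, and its share of the Mmp sum was 4.66% and 9.32% in the Yap controls and 37.8% and 20.7% in the Yap1 knockouts. Mmp9, a gelatinase that neutrophils store, was at 22.5 and 10.7 CPM in the controls against 72.9 and 36.7 CPM in the knockouts (log2 1.72, SE 0.536, edgeR adjusted p = 0.25). Mmp25, a membrane-anchored enzyme of leukocytes, stood at 0.719 and 0.165 CPM in these controls and 4.21 and 1.83 CPM in these knockouts (log2 2.71, SE 0.704, edgeR adjusted p = 0.198).

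The sum over 11 neutrophil genes was also higher in the knockouts. The Yap controls held 120 and 225 CPM of it, the Yap1 knockouts 830 and 423 CPM. Of those genes, 1 was at 0 in Yap control 1. For 8 of them both knockouts exceeded both controls. Log2 fold changes were below 0 for 2, Ltf (-0.18) and Elane (-0.66). Ltf, Mpo and Elane peaked within the Yap line in Yap control 2. Red blood cell genes rose as well, all 6 of them without overlap. Their sum was 123 and 229 CPM for the controls, then 467 and 403 CPM for the knockouts. The part of neutrophils, or of blood, in the levels of Mmp8, Mmp9 and Mmp25 was not tested. Mmp15, a membrane-anchored relative of Mmp14, was at 27 and 34.6 CPM in the Yap controls against 17.3 and 13.3 CPM in the Yap1 knockouts (log2 -1.01, SE 0.293, edgeR adjusted p = 0.231). In the Ctgf comparison 2 of the 11 had an unadjusted p under 0.05, beside 1.98% of all genes, and DESeq2 called 0. The log2 fold change of Mmp10 was -3.37 (SE 1.01), on 12 and 63 counts in the Ctgf controls and 5 and 1 in the knockout libraries. That of Mmp28 was 0.95 (SE 0.412), and each had an edgeR adjusted p of 1. Mmp24, a membrane-type enzyme, was the 1 Mmp gene that passed with edgeR in the comparison of the lines: it was at 0.332 and 0.288 CPM in the Yap controls, on 12 and 7 counts, against 2.61 and 2.64 CPM in the Ctgf controls (log2 -3.06, SE 0.505, edgeR adjusted p = 0.0338). In the Yap1 knockouts it was at 0.592 and 0.969 CPM, above both Yap controls (log2 1.31, SE 0.511, unadjusted p = 0.0337, edgeR adjusted p = 0.335). Mmp23 stood higher in the Yap controls than in the Ctgf controls (log2 2.12, SE 0.473, edgeR adjusted p = 0.0611) and was called by DESeq2. The log2 fold changes of Mmp11, Mmp17, Mmp23 and Mmp27 ran from -0.93 to 0.13 in the Yap1 comparison and from -0.72 to 0.58 in the Ctgf comparison.

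Genes that act on the proteases were counted as well. Of 9 other inhibitors tested, 0 passed with edgeR in the Yap1 comparison, 4 had an unadjusted p under 0.05 (13.8% of all genes) and DESeq2 called 2 higher (3.85% of its tested genes), with a median log2 fold change of 0.78 beside 0 over all genes. Reck, a membrane-anchored inhibitor of metalloproteinases, stood at 4.89 and 3.05 CPM in the Yap controls and 9.78 and 7.51 CPM in the Yap1 knockouts (log2 1.12, SE 0.328, edgeR adjusted p = 0.233). Both knockouts stood above both controls. In the Ctgf comparison 0 of the 9 passed, 0 had an unadjusted p under 0.05, and Reck and Pzp, a broad protease inhibitor of plasma, had log2 fold changes of 0.60 and 0.41.

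Of 10 activators of proenzymes tested, 0 passed with edgeR in the Yap1 comparison, 2 had an unadjusted p under 0.05, a share near the 13.8% of all genes, and DESeq2 called 1 lower, Klkb1 (3.85% of its tested genes). Klkb1, plasma prekallikrein, was at 28.2 and 61.4 CPM in the Yap controls against 9.94 and 7.2 CPM in the Yap1 knockouts (log2 -2.38, SE 0.483, edgeR adjusted p = 0.129). Plat, tissue plasminogen activator, stood at 7.33 and 6.96 CPM in these controls and 9.55 and 19.4 CPM in these knockouts (log2 1.02, SE 0.357, edgeR adjusted p = 0.292). In the Ctgf comparison 0 passed and 0 had an unadjusted p under 0.05. Plaur and Plau, the urokinase receptor and urokinase, had log2 fold changes of -0.69 and -0.60.

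A list of 19 further metalloproteinases held Adam and Adamts genes, several of whose products Timp3 is known to block, and Bmp1, the procollagen C-proteinase. Of these, 0 passed with edgeR in the Yap1 comparison, 2 had an unadjusted p under 0.05, near the 13.8% of all genes, and DESeq2 called 1, Adamts5 (3.85% of its tested genes). Adamts5, an aggrecanase, was at 4.89 and 5.1 CPM in the Yap controls against 9.64 and 13.4 CPM in the Yap1 knockouts (log2 1.21, SE 0.328, edgeR adjusted p = 0.213). Adam19 had a log2 fold change of 1.26 (SE 0.506, edgeR adjusted p = 0.343). The median log2 fold change of the 19 was 0.59 in the Yap1 comparison, beside 0 over all genes. Yap control 2, the library with the pancreas transcripts, had the lowest level of the Yap line for 12 of the 19. In the Ctgf comparison the median was -0.17, beside 0.01 over all genes. There 0 passed and 2 had an unadjusted p under 0.05, Adamts14 (log2 0.84, SE 0.304) and Adamts1 (log2 -0.92, SE 0.361), each with an edgeR adjusted p of 1. In the line comparison 4 of the 19 were higher in the Yap controls by edgeR (1.27% of all genes were), Adamts2 (log2 1.65, adjusted p = 0.0338), Adam15 (1.56, 0.0416), Adamts5 (1.84, 0.044) and Adam8 (2.67, 0.0449).

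Cytokines and AP-1 subunits, which are known inducers of several Mmp genes, made up a list of 13 tested genes. In the Yap1 comparison 0 passed with edgeR, 3 had an unadjusted p under 0.05 (13.8% of all genes) and DESeq2 called 0. Yap control 2, the library with the pancreas transcripts, had the lowest level of the Yap line for 8 of the 13. Jun was at 146 and 139 CPM in the Yap controls against 241 and 224 CPM in the Yap1 knockouts (log2 0.70, SE 0.211, edgeR adjusted p = 0.24). Junb stood at 87.2 and 83.5 CPM in these controls and 197 and 145 CPM in these knockouts (log2 1.00, SE 0.37, edgeR adjusted p = 0.314). In the Ctgf comparison 0 passed and 4 had an unadjusted p under 0.05 (1.98% of all genes), while DESeq2 called 0. Ctgf knockout 1 had the lowest level of the Ctgf line for 12 of the 13. Tnf, an inflammatory cytokine, was at 6.38 and 5.8 CPM in the Ctgf controls against 1.14 and 1.81 CPM in the knockout libraries (log2 -2.04, SE 0.453, edgeR adjusted p = 1), and Jun had a log2 fold change of -0.59 (SE 0.211).

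Finally, the genes with the most similar profile over the 8 libraries were found for the 8 members with a mean of at least 5 CPM, by the root mean square difference of centred log2(CPM + 0.5). The closest gene to both Mmp12 and Mmp13 was Itgax, which encodes the leukocyte integrin CD11c, with differences of 0.465 and 0.509. Itgax was at 12.9 and 4.57 CPM in the Yap controls, 6.32 and 4.57 in the Yap1 knockouts, 5 and 5.94 in the Ctgf controls and 2.55 and 14.7 in the Ctgf knockout libraries. The next were Tlr1 (0.498) and Sema4d (0.543) for Mmp12, and Ugt2b37 (0.562) and Olr1 (0.573) for Mmp13. Mmp7 was closest to Spp2 (0.594), Spp1 (0.596) and Krt19 (0.67), all of them highest in Yap control 2. Timp1 was closest to Bst1 (0.366), Des (0.368) and Tox2 (0.368). Des, the desmin of stellate cells, was at 32 to 37.6 CPM in the Yap line and at 5.74 to 9.19 CPM in the Ctgf line.

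Timp3 was closest to Trib2 (0.146), Enc1 (0.202) and Slc7a2 (0.219). Trib2, a pseudokinase gene, was at 8.05 and 4.9 CPM in the Yap controls, 18.5 and 24.1 in the Yap1 knockouts, 4.18 and 5.17 in the Ctgf controls and 3.55 and 5.22 in the Ctgf knockout libraries, which is the order of the libraries by Timp3 apart from Yap control 2 and Ctgf control 2, whose places were exchanged. Mmp14 was closest to Limk2 (0.0657), Mta3 (0.0687) and Ano10 (0.0837), Mmp19 to Dcun1d3 (0.0507), Tnpo3 (0.0531) and Ddx51 (0.0623), and Timp2 to Rogdi (0.101), Adamtsl2 (0.113) and BC005561 (0.116). Small differences are easier to reach for members that vary little: the SD of the centred values was 0.319 for Mmp19 and 0.345 for Mmp14, against 1.65 for Mmp7. With 8 libraries and 10137 candidate genes, close profiles occur in number, and these are given as a description.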

How the data were processed

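RNA from frozen mouse liver was sequenced in 8 libraries, 2 in each of 4 groups. The authors deposited read counts per gene symbol. The tools named are HTSeq 0.6.1, STAR 2.6.0a and bcl2fastq 2.20.0.422, and the builds mm10 and GRCm38, per the submitters' processing notes. The sources used here give neither annotation nor strand setting, so genes that overlap on opposite strands are uncertain. The labels' protocols name a TruSeq and a KAPA kit, without saying which library had which. All 8 count columns were used (columns not used: 0), and 4534 of 22155 genes had no count. Reads carry no molecular identifiers.

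Counts were tested with edgeR 4.0.16 (R 4.3.3, limma 3.58.1), TMM scaling and the quasi-likelihood F test, in a single fit of the 4 groups with 4 residual degrees of freedom. The low-count filter left 13999 genes, with all 10 members among them. P-values were adjusted by Benjamini-Hochberg over these genes, with a threshold of 0.05. The fit assumes that groups vary alike. The labels do not say that libraries of a group came from separate animals, so the spread that p-values measure is between these samples and may be technical. The 95% intervals use an SE equal to the size of the fold change over the root of F. A count of 3 was 0.0829 to 0.121 CPM. Lengths came from GENCODE M21 by symbol (21712 matched).

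The rule named the 10 members, the tested Mmp and Timp genes, per pathway list the 2 genes with the smallest p in each knockout comparison, and per member the 3 genes of most similar profile. A gene that the rule names among the other inhibitors is not reported here. Genes named by a test's calls or as single markers, and overlapping genes, were named after their values were seen. The members, the lists and the tests were chosen with earlier results of these data known. The scripts were tested on simulated data. Alternatives were DESeq2 1.42.0, RLE size factors, no low-count filter, a fit of the compared groups alone, a block for replicate number, each library left out, and both doubtful libraries (Yap control 2 and the library labelled Ctgf knockout 2) left out.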

Additional observations from a re-analysis of the deposited data

How the results depend on the processing

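Counts of genes past the threshold depended strongly on the setting. The Yap1 comparison called 4 genes with the fit described, 549 with DESeq2, 37 with no low-count filter, 0 with only its own libraries, 938 without Yap control 2 and the library labelled Ctgf knockout 2 together, and 0 to 3728 with each library left out. The Ctgf comparison called 0, and 4 with DESeq2 (0 to 0 with each library left out). The difference between the effects called 0, against 166 with DESeq2, 2 with no filter, 143 without both doubtful libraries and 0 to 2092 with each left out. The line comparison called 333, against 1605, 0 with only its own libraries, 4056 without both and 0 to 3699 with each left out. RLE size factors changed none of these counts by over 1.5 times.

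Members past the threshold were 0 with the fit described in each comparison. In the Yap1 comparison there was 1 (Timp3) with DESeq2, 1 (Timp3) without both doubtful libraries and 0 to 2 with each library left out (2 without Yap control 1, Mmp7 and Timp3). In the difference there were 0 to 1 with each left out. In the line comparison there were 3 with DESeq2 (Mmp3, Mmp7 and Timp1), 3 without both (Mmp19, Timp1 and Timp3) and 0 to 4 with each left out. The Timp3 log2 fold change in the Yap1 comparison ran from 1.25 to 1.84 with each library left out, with adjusted p of 0.0155 to 0.818, and was 1.25 without both, with an adjusted p of 0.0219.

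Without both doubtful libraries the direction turned for Mmp7 (1.93) and Mmp19 (-0.09) in the Yap1 comparison, and in the Ctgf comparison for Mmp2 (0.11), Mmp12 (-2.34), Mmp13 (-1.34), Mmp14 (-0.03), Mmp19 (0.11), Timp2 (0.01) and Timp3 (-0.20). With each library left out in turn, log2 fold changes that turned direction in the Yap1 comparison were Mmp3 (-0.66 to 0.66), Mmp7 (-2.36 to 1.94), Mmp12 (-1.09 to 0.79), Mmp13 (-1.99 to 1.46), Mmp14 (-0.10 to 0.27) and Mmp19 (-0.09 to 0.23). In the Ctgf comparison they were Mmp2 (-1.24 to 0.11), Mmp7 (-0.52 to 1.27), Mmp12 (-2.34 to 1.30), Mmp13 (-1.34 to 1.30), Mmp14 (-0.03 to 0.37), Mmp19 (-0.41 to 0.11), Timp1 (-1.13 to 0.68), Timp2 (-0.38 to 0.01) and Timp3 (-0.20 to 0.53). In the line comparison they were Mmp12 (-0.68 to 1.21) and Mmp13 (-2.04 to 1.41). The causes were not tested.

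Replicate numbers are shared between the groups, and same-numbered libraries deviated together only weakly over the tested genes (r = 0.154 in the Yap line and 0.103 in the Ctgf line). With 2 libraries a group, each r rests on 1 difference per group and cannot exclude pairing. The numbers were not taken to pair animals in the main fit. The titles of the Yap controls name a numbered knockout each, and the number of 1 of them, replicate 2, is that of Yap1 knockout 2, while the other is no knockout library's. With the replicate block, 19 genes passed in the Yap1 comparison and 219 in the line comparison, Mmp12 turned to -0.47 in the Ctgf comparison, Mmp7 and Mmp13 moved to -0.32 and -0.50 in the Yap1 comparison, and Timp3 in the Yap1 comparison was 1.55 with an adjusted p of 0.0964. With 2 libraries a group, a member that varies as Mmp7, Mmp12 or Mmp13 does cannot be placed within several-fold.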
